A study of Mus musculus with 3 samples.

Results

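The imprinted growth genes described here were H19, Igf2, Dlk1, Meg3, Rian, Peg3, Plagl1, Ndn, Grb10 and Mest, taken from a list of names. Of these 10 symbols, 9 matched a gene row in all 3 tumours, out of 31053 genes in the count matrices. Rian was not analysed here.

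The data were single-cell RNA-seq counts from 3 brain tumours, each from a separate mouse, and all carried the label R26-SHH. Every animal had the genotype Rosa26-CreERT2::Smarcb1flox/flox on a mixed 129/SV and C57BL/6 background. In these mice tamoxifen switches on a Cre recombinase that is expressed from the ubiquitous Rosa26 locus, so the core SWI/SNF gene Smarcb1 is lost in unrestricted cell types, and the study uses the Shh tumours that follow as a model of atypical teratoid rhabdoid tumour. The labels gave no ages, there was no control tissue, and the cells were not sorted, so normal cells that lie in the tumour were sequenced with the tumour cells.

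An imprinted gene is transcribed mainly from the chromosome copy inherited from 1 parent, under the control of a DNA region that is methylated in 1 germ line only. Many imprinted genes set the growth of the fetus and the placenta: paternally expressed members such as Igf2, Dlk1, Peg3 and Mest are mostly growth promoters, and maternally expressed members such as H19 mostly restrain growth. They are high before birth and fall in most tissues after it, while several, Ndn and Peg3 among them, stay on in neurons. The counts do not tell the parental copies apart, so imprinting itself was not measured.

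H19 and Igf2 are neighbours in the genome, as are Dlk1 and Meg3, and the positions given here are those of build GRCm38 with the GENCODE M21 annotation. H19 (ENSMUSG00000000031), a long noncoding RNA that hosts a microRNA, spans chr7:142575529-142578143 on the minus strand, and Igf2 (ENSMUSG00000048583), a secreted insulin-like growth factor, spans chr7:142650766-142666816 on the same strand, with 72622 bases between them. Dlk1 (ENSMUSG00000040856), a transmembrane protein with epidermal growth factor-like repeats, spans chr12:109452823-109463336 on the plus strand. Meg3 (ENSMUSG00000021268), a maternally expressed long noncoding RNA of the same imprinted domain, starts 77664 bases further on and spans chr12:109541001-109571726. Peg3 (ENSMUSG00000002265), a zinc finger protein, spans chr7:6703892-6730431 on the minus strand, and Ndn (ENSMUSG00000033585), which encodes necdin, spans chr7:62346569-62350262 on the plus strand with 1 exon. Plagl1 (ENSMUSG00000019817), a zinc finger transcription factor, spans chr10:13060504-13131694 on the plus strand. Grb10 (ENSMUSG00000020176), an adaptor that dampens insulin and insulin-like growth factor receptors, spans chr11:11930508-12038683 on the minus strand, and Mest (ENSMUSG00000051855), which encodes a hydrolase-like protein, spans chr6:30723547-30748465 on the plus strand.

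The Igf2 values carry a limit of the annotation. Of the exonic bases of Igf2, 3596 (62.8%) are also exonic in Gm49394, a read-through gene model on the same strand that has its own row in the matrices, and the counting program leaves out reads that fit both genes. Gm49394 itself had 49 UMIs in the mesenchymal-like cells of tumour 1 and 14 in those of tumour 2. The Igf2 levels therefore leave out such reads. The genes with rows of their own that share exonic bases with Meg3 and Mest lie on the opposite strand (1228 bases with Gm26906 and 912 with Copg2).

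The sequences upstream of Dlk1, Meg3 and Grb10 are shown because Dlk1 and Meg3 share a domain and were each called higher in a state in which Grb10 was called lower. Each is the 250 bases before a RefSeq start site (build GRCm38.p6), written 5′ to 3′ on the strand of the gene. Capitals mark GGGCGG on either strand, the GC box that factors of the Sp family bind. They also mark TATAAA on either strand, the sequence that positions many start sites. Of 9 members, 8 had an entry, with 15 start sites in all, and the upstream sequence of H19 was not analysed here. For Meg3 and Grb10, which have several start sites, the first in the direction of transcription is shown.
Dlk1, chr12:109452573-109452822, plus strand: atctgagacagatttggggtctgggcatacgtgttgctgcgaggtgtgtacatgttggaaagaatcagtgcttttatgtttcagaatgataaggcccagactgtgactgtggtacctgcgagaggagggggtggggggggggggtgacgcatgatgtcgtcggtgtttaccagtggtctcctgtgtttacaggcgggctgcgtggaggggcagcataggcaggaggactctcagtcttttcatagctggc
Meg3, chr12:109540746-109540995, plus strand: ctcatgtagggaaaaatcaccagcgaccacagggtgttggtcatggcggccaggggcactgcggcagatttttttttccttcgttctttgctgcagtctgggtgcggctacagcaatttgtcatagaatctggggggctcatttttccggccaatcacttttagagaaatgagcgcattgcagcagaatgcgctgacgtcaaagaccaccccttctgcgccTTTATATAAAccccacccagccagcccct
Grb10, chr11:12037421-12037670, minus strand: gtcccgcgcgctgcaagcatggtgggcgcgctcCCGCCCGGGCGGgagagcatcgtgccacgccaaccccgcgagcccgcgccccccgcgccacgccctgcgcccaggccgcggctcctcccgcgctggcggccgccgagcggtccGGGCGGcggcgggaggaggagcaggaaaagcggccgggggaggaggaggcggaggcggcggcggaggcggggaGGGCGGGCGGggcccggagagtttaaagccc

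Among all 32851 windows of this length, 32.7% held a GGGCGG and 12.4% a TATAAA on either strand, and the median window had 6 CG dinucleotides. The Grb10 window held 5 GC boxes, of which the last pair overlap, and 40 CG dinucleotides, more than 98.7% of windows. In the Meg3 window 2 TATAAA matches on opposite strands overlapped, beside 10 CG dinucleotides. The Dlk1 window had 8 CG dinucleotides and neither motif. Of the windows not shown, those of Peg3 (8 CG dinucleotides) and Ndn (5) held neither motif, and that of Plagl1 held 2 GC boxes and 19 CG dinucleotides. The second windows of Grb10 (8 CG dinucleotides) and Meg3 (0) also held neither motif. The Igf2 windows held 0 to 2 GC boxes, and each Mest window held 1. Which start sites these cells use was not measured. These are descriptions of the letters in the windows, and no binding or methylation was measured.

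To describe the members by kind of cell, 20816 cells that passed the quality filters were set against fixed marker lists, and 13415 of them had at least 2000 UMIs (unique molecular identifiers, each standing for 1 captured transcript) and were classified. A tumour state required 2 detected markers of its list, or 3 for neuronal-like cells, after thinning to 2000 UMIs, and a non-tumour class required 3. The states were mesenchymal-like (Twist1, Prrx1, collagens; 601, 367 and 85 cells in tumours 1, 2 and 3), Sox9+ stem-like (Sox9, Sox2, Nes; 611, 366 and 361 cells), progenitor-like (Dlx and Gsx genes; 1179, 422 and 656 cells) and neuronal-like (Dcx, Stmn2, Tubb3; 201, 217 and 42 cells). The compared non-tumour classes were immune-like (606, 602 and 155 cells), endothelial-like (117, 73 and 66 cells) and mural-like cells, the contractile cells of vessel walls (76, 30 and 50 cells). Cells of no list (4364) or of several states (1653) were left out of the comparisons, so the classes do not exhaust the tumours. In the classes they chose, the lists summed to 1321 to 2514 CPM by tumour (counts of UMIs scaled to one total for every sum) for the mesenchymal, 3980 to 8749 for the Sox9+, 1578 to 2302 for the progenitor and 4328 to 5799 for the neuronal list. Mesenchymal-like cells also had 1825 to 3185 CPM of the Sox9+ list, and progenitor-like cells had 1656 to 2372 CPM of it, more than of their own list in every tumour.

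Smarcb1 was low in the tumour states and higher in the 3 compared non-tumour classes. Over 5108 cells of the 4 states only 25 Smarcb1 UMIs were counted among 61846158, and the Smarcb1 level was at most 1.07 CPM in any state of any tumour. It lay between 18.6 and 28.4 CPM in immune-like, 37.9 and 56.0 CPM in endothelial-like and 48.4 and 82.2 CPM in mural-like cells. Cells of no list (0.654 to 0.993 CPM) and cells of several states (0.212 to 0.496 CPM) were as low as the states. Which exons the floxed allele removes relative to the 3′ tag is not given in the sources used here. Over all barcodes the tumours had 79529921, 40151353 and 67645602 UMIs, and 42, 22 and 24 cell barcodes were shared by tumours 1 and 2, 1 and 3, and 2 and 3.

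Across the states the members fell into groups by where their mean level was highest. H19, Igf2, Dlk1 and Mest were highest in mesenchymal-like cells (Mest through tumour 3 alone, Sox9+ cells being higher in tumours 1 and 2), Meg3, Peg3 and Ndn in neuronal-like cells, Plagl1 in Sox9+ stem-like cells and Grb10 in progenitor-like cells. Counts were summed per tumour and class and all 14359 genes with enough counts were fitted together, with the tumour as a block (edgeR's quasi-likelihood test, Benjamini-Hochberg adjustment, n = 3 tumours). A gene is called when its adjusted p is under 0.05.

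**Figure D1:**
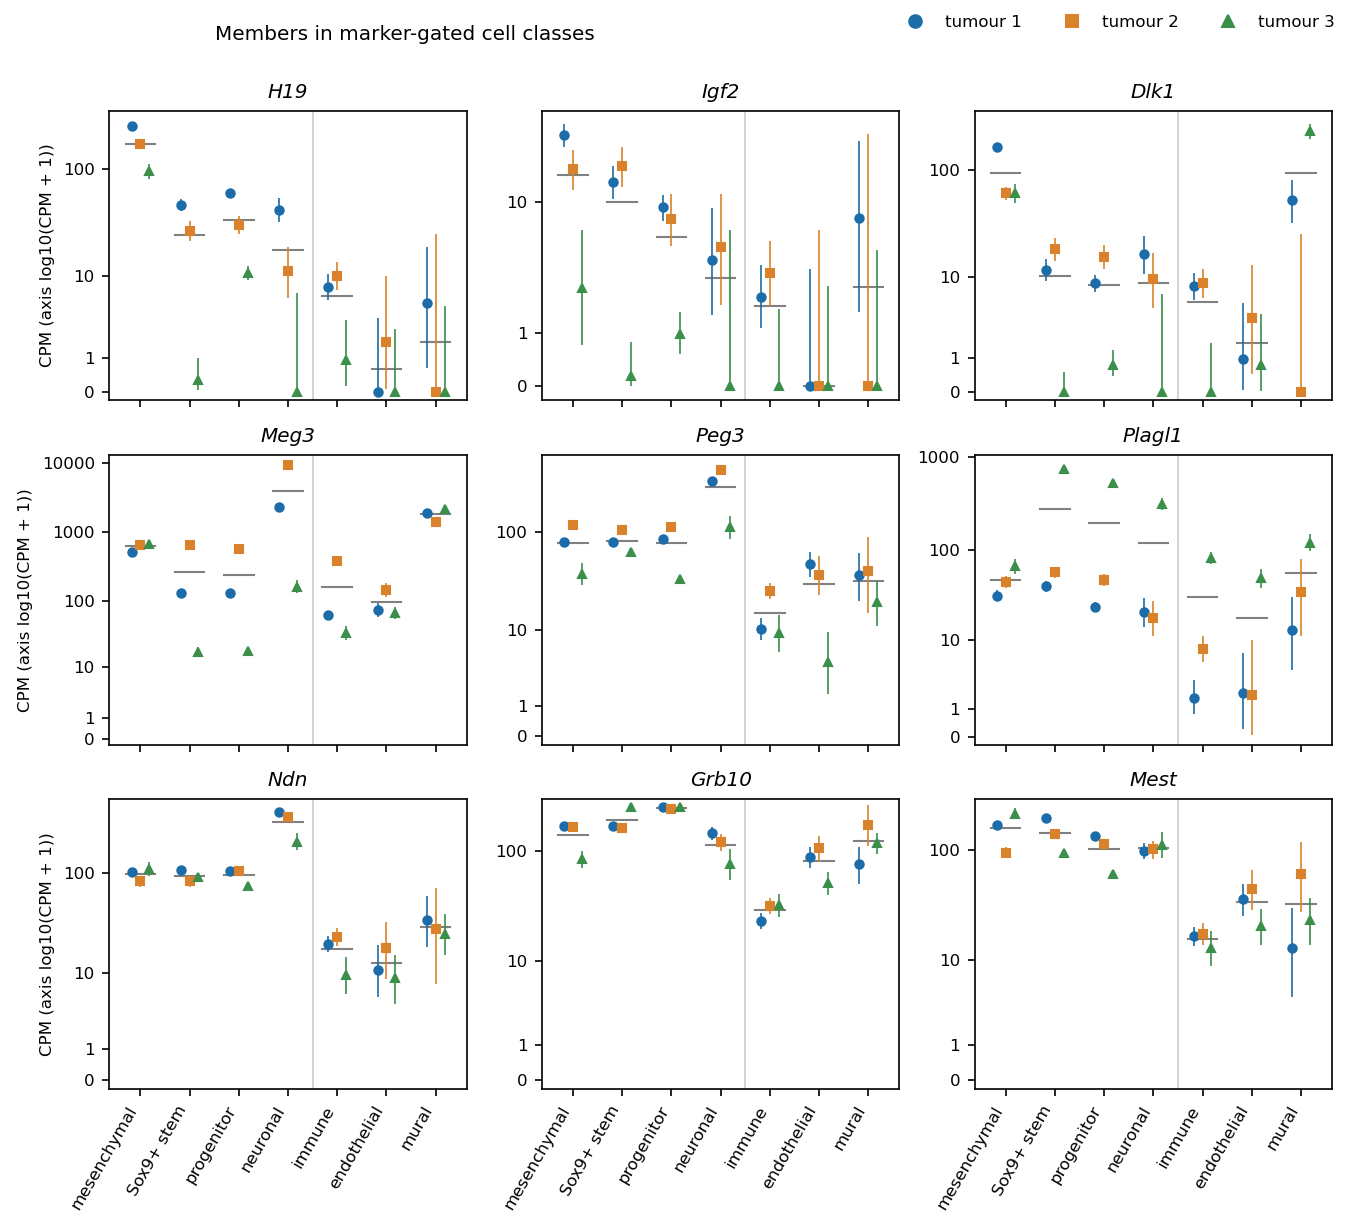
Level of each member (CPM, on a log10 axis of the level plus 1) in the 4 tumour states and 3 non-tumour classes of each tumour. Points are tumours, bars are exact Poisson 95% intervals that cover counting error only, and grey lines are means over the 3 tumours. H19 was highest in mesenchymal-like cells in every tumour (95.4 to 244, in tumour 3 through 1 cell with 135 of 148 UMIs), Meg3 was highest in neuronal-like cells of tumours 1 and 2 (2278 and 9316), and Plagl1 stood apart in tumour 3 (525 in progenitor-like cells).

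H19 and Dlk1 were the members that rose in mesenchymal-like cells. H19 stood at 244, 168 and 95.4 CPM in the mesenchymal-like cells of tumours 1, 2 and 3, against 60.8, 30.8 and 10.8 CPM in progenitor-like cells. The Sox9+ stem-like cells had 47.0, 27.2 and 0.278 CPM. Every mesenchymal-like value lay above every progenitor-like and every Sox9+ value, while the progenitor-like and Sox9+ ranges overlapped. In tumour 3 the mesenchymal-like value rests on 1 cell, which held 135 of the 148 UMIs. On the log2 scale mesenchymal-like cells were 2.60 higher than progenitor-like cells (SE 0.494, adjusted p = 9.08e-04) and 3.37 higher than Sox9+ cells (SE 0.527, adjusted p = 5.82e-04), and higher in 3 of 3 tumours both times. Between Sox9+ and progenitor-like cells the difference was -0.77 (95% interval -1.76 to 0.21, adjusted p = 0.506).

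Neuronal-like cells had 42.6, 11.1 and 0 CPM of H19, and immune-like cells 7.83, 10.0 and 0.942 CPM. In endothelial-like cells 1 H19 UMI was found over the 3 tumours, and in mural-like cells 2. By mean level the order was mesenchymal-like (169 ± 74.2 CPM, SD, n = 3), progenitor-like (34.1 ± 25.2), Sox9+ (24.8 ± 23.4), neuronal-like (17.9 ± 22.1), immune-like (6.27 ± 4.74), mural-like (1.77 ± 3.06) and endothelial-like (0.60 ± 1.04), and from progenitor-like cells downwards neighbours in that order overlapped between tumours. Fold changes over the vessel classes are not given because they rest on these few UMIs.

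The H19 call changed with the tumours that entered. Without tumour 1 the difference was 2.91 against progenitor-like cells (adjusted p = 0.0739), and without tumour 2 it was 2.67 (adjusted p = 0.0749), so the call was lost in these fits of 2 tumours. Without tumour 3 the difference was 2.22 (adjusted p = 1.84e-05). Against Sox9+ cells it was 4.21 without tumour 1 (adjusted p = 0.0828), 3.87 without tumour 2 (0.0736) and 2.49 without tumour 3 (3.06e-05). The size also changed with the gates. With cells gated at 1000 UMIs the difference from progenitor-like cells was 1.26 and not called (adjusted p = 0.114), and over all 13 alternatives it ran from 1.26 to 4.34, and that from Sox9+ cells from 2.17 to 4.23.

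The H19 transcripts sat in few cells. In mesenchymal-like cells of tumour 1, 41 of 601 cells had at least 10 H19 UMIs and held 88.3% of all H19 UMIs of the class. In tumour 2 it was 13 of 367 cells with 82.1%, and in tumour 3 it was 2 of 85 cells with 100% of the 148 UMIs. A single cell of tumour 3 held 135 of them (91.2%), so the mesenchymal-like value of that tumour rests on that cell.

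The same unevenness held for H19 in progenitor-like cells, where the highest cell carried 189 of 764 UMIs in tumour 1 and 79 of 115 in tumour 2. Cells with 10 or more H19 UMIs in tumour 1 had a median depth of 12848 UMIs against 9485 in the other mesenchymal-like cells. With the highest cell left out of every sum, the mesenchymal-like minus progenitor-like difference was 2.10 (adjusted p = 0.0393) and that over Sox9+ cells 2.90 (adjusted p = 0.0121).

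As a share of cells, with every cell thinned to 2000 UMIs, H19 was detected in 11.0%, 8.17% and 2.35% of mesenchymal-like cells. In progenitor-like cells it was detected in 3.39%, 2.61% and 0.762%. Immune-like cells, which should lack the transcript, gave 1.65%, 1.5% and 0%, which is taken here as the background. Unthinned, the mesenchymal-like shares were 19.3%, 14.4% and 2.35%, at median depths from 8147 to 16640 UMIs by tumour against 6672.5 to 10537 in immune-like cells. The neuronal-like shares of H19 were 1.99%, 2.76% and 0%. The exact 95% intervals of the mesenchymal-like shares lay above the immune-like intervals in tumours 1 and 2 and overlapped them in tumour 3. Those of the progenitor-like and neuronal-like shares overlapped the immune-like intervals in every tumour, so no expression is read from these shares. Unthinned, at least 10 H19 UMIs were found in 13 of 1179, 2 of 422 and 4 of 656 progenitor-like cells. The counts were 2 of 201, 0 of 217 and 0 of 42 in neuronal-like cells, and 1 of 606, 0 of 602 and 0 of 155 in immune-like cells.

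Igf2 had few UMIs and was not called between states. Its level in mesenchymal-like cells was 25.3, 15.8 and 2.58 CPM, from 167, 55 and 4 UMIs. Sox9+ cells had 13.2, 16.4 and 0.139 CPM, and progenitor-like cells 9.24, 7.77 and 0.968 CPM. The mesenchymal-like value exceeded the progenitor-like value within each tumour, by 1.18 on the log2 scale (95% interval 0.21 to 2.15, adjusted p = 0.134), but the ranges over tumours overlapped. It was called without tumour 3 (adjusted p = 0.0190), at 1000 UMIs (0.0294) and without cycling cells (0.0455). Neuronal-like cells had 6, 6 and 0 Igf2 UMIs, and the difference from progenitor-like cells (-1.24, adjusted p = 0.199) was called with 1 more marker (-2.53, adjusted p = 0.0269) and with doublets kept (-1.72, adjusted p = 0.0445).

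Dlk1 also rose in mesenchymal-like cells. Its level was 163, 61.5 and 61.9 CPM in mesenchymal-like cells and 8.60, 15.5 and 0.760 CPM in progenitor-like cells. Sox9+ cells had 11.7, 18.5 and 0 CPM, and neuronal-like cells 16.8, 9.42 and 0 CPM. The lowest mesenchymal-like value was above every value of the other states, and the other 3 states overlapped one another.

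The mesenchymal-like minus progenitor-like difference of Dlk1 was 3.93 (SE 0.865, adjusted p = 0.00340), and that over Sox9+ cells was 3.56 (SE 0.866, adjusted p = 0.0218), with 3 of 3 tumours higher. Without tumour 1 the differences were 3.84 and 3.62 (adjusted p = 0.242 and 0.552), and without tumour 2 they were 4.89 and 4.62 (0.0324 and 0.116), so calls were lost at differences close to the full ones or larger. Without tumour 3 they were 3.32 and 2.89 (1.45e-05 and 2.41e-04). The call over Sox9+ cells was also lost with DESeq2 (4.26, adjusted p = 0.0523) and with doublets kept (2.75, adjusted p = 0.0827). In tumour 1 a single progenitor-like cell held 74 of 108 Dlk1 UMIs. With the highest cell left out of every sum the difference from progenitor-like cells was 4.67 (adjusted p = 0.00118). Neuronal-like and progenitor-like cells differed by 0.37 (95% interval -1.84 to 2.58, adjusted p = 0.865).

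Like H19, Dlk1 was carried by a minority of mesenchymal-like cells. At least 10 Dlk1 UMIs were found in 25 of 601, 8 of 367 and 4 of 85 cells, and these held 87.3%, 67.3% and 79.2% of the Dlk1 UMIs. After thinning, 7.15%, 5.45% and 4.71% of mesenchymal-like cells had a Dlk1 UMI, against 0.509%, 1.66% and 0.152% of progenitor-like cells. Immune-like cells gave 0.495%, 0.498% and 0%, so the progenitor-like share of tumour 1 was at this background. Single immune-like cells held 39 of the 44 Dlk1 UMIs of that class in tumour 1 and 25 of the 36 in tumour 2, and where they come from was not tested.

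**Figure D2:**
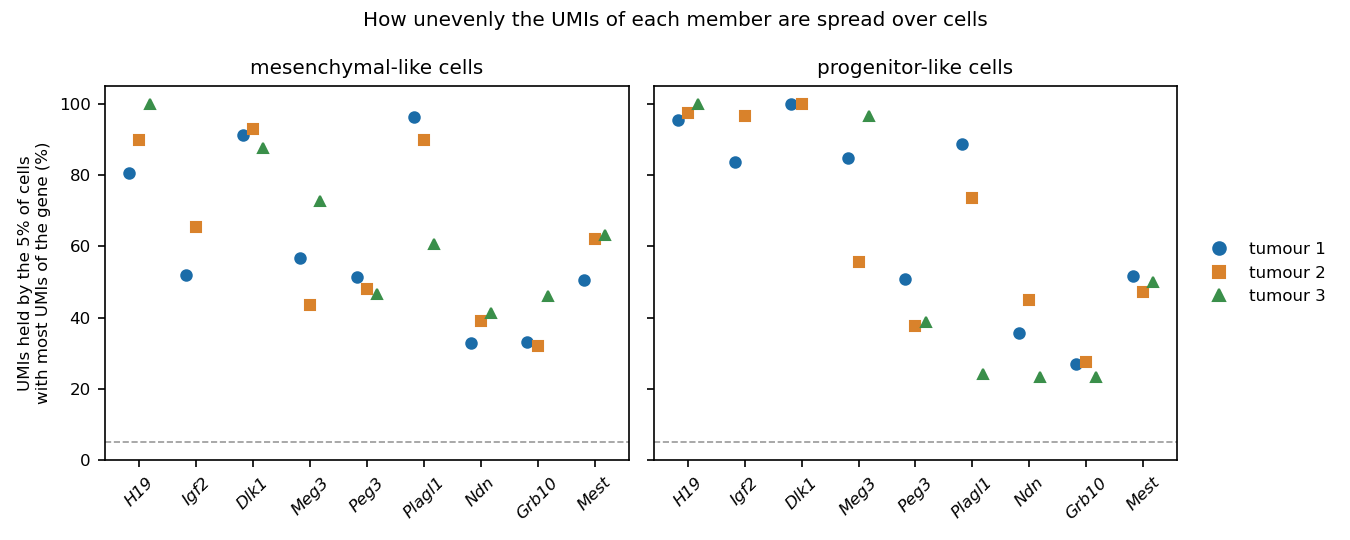
Share of each member's UMIs (%, vertical axis) held by the 5% of cells with most UMIs of that gene, in mesenchymal-like and progenitor-like cells of each tumour. The dashed line at 5% is an even spread, and sums under 20 UMIs have no point. H19 and Dlk1 lay between 80.6% and 100% in mesenchymal-like cells, and Ndn and Grb10 between 32.0% and 46.2%.

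Not every member was so concentrated. In the mesenchymal-like cells of tumour 1, the 5% of cells with most UMIs held 80.6% of H19, 91.2% of Dlk1 and 96.2% of Plagl1, but 52.1% of Igf2, 33.0% of Grb10 and 32.8% of Ndn. A gene with few UMIs is concentrated by counting alone, so these shares describe each gene and do not rank the members.

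Markers of other cell types moved with the mesenchymal-like class. The 10 fibroblast and meningeal genes, of which 1 to 3 were at 0, summed to 233 to 606 CPM by tumour in mesenchymal-like cells and to 5.18 to 36.2 CPM in progenitor-like cells. The mural list summed to 42.5 to 131 against 11.3 to 18.3 CPM, and the immune list to 39.3 to 110 against 37.9 to 121 CPM. Of the glial lists, 2 were higher in mesenchymal-like cells, at 249 to 380 against 57.9 to 165 CPM for the astrocyte list (10 genes, 0 to 1 at 0) and 40.0 to 71.3 against 10.4 to 17.7 CPM for the oligodendrocyte precursor list (9 genes, 1 to 4 at 0), while the oligodendrocyte list overlapped (56.1 to 180 against 27.4 to 214 CPM, 10 genes, 1 to 6 at 0). Smarcb1 stood between 0 and 0.645 CPM in mesenchymal-like cells, far below the mural-like values. The part of these markers in the H19 and Dlk1 differences was not tested.

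Meg3 was highest in neuronal-like cells in tumours 1 and 2, but not in tumour 3, where mesenchymal-like and mural-like cells had more. In neuronal-like cells it stood at 2278, 9316 and 161 CPM, against 128, 566 and 17.6 CPM in progenitor-like cells of the same tumours. Sox9+ cells had 132, 635 and 17.1 CPM, close to the progenitor-like values, and mesenchymal-like cells 516, 649 and 677 CPM. Within each tumour the neuronal-like value was higher than the progenitor-like value, but the ranges over tumours overlapped, with tumour 2 highest and tumour 3 lowest in both classes.

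Neuronal-like cells exceeded progenitor-like cells by 3.89 on the log2 scale for Meg3 (SE 0.930, adjusted p = 0.00443). Without tumour 1 the difference was 3.80 and not called (adjusted p = 0.145). The mesenchymal-like minus progenitor-like difference of Meg3 was 2.56 (95% interval 0.75 to 4.38, adjusted p = 0.0736) and was not called, although it was positive in 3 of 3 tumours. It was called by DESeq2, without the filter on low counts, with 1 more marker per class and with at least 50 cells per sum. It was 1.11 without tumour 3 (adjusted p = 0.241), 3.70 without tumour 2 (0.0519) and 3.06 without tumour 1 (0.403). In immune-like cells Meg3 stood at 62.3, 376 and 33.9 CPM, in the same order of tumours as in progenitor-like cells, and its thinned share there was 4.29%, 20.8% and 1.94% against 50.2%, 79.3% and 11.9% in neuronal-like cells.

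Mural-like cells were the other class with much Meg3, at 1888, 1389 and 2131 CPM, and after thinning 70% to 82.9% of them had a Meg3 UMI. The mesenchymal-like minus mural-like difference was -1.75 (95% interval -3.44 to -0.06, adjusted p = 0.137), which did not pass the test. It passed without the filter on low counts (-1.70, adjusted p = 0.0165), with doublets kept (-2.03, 0.0380) and with at least 50 cells per sum (-2.28, 0.0319). Endothelial-like cells had 73.8, 144 and 67.0 CPM.

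Dlk1 was also present in mural-like cells, but unevenly. It stood there at 53.0, 0 and 228 CPM, from 20, 0 and 172 UMIs. The mesenchymal-like minus mural-like difference was -0.87 (95% interval -2.52 to 0.77, adjusted p = 0.477) although mesenchymal-like cells were higher in 2 of 3 tumours, and without tumour 3 it turned to 1.58 (adjusted p = 0.0864). No order between these classes is read from Dlk1.

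Because Dlk1 and Meg3 come from 1 imprinted domain, as do H19 and Igf2, their detection in the same cells was compared at 2000 UMIs per cell. Among mesenchymal-like cells with a Dlk1 UMI, 24 of 43 (55.8%) in tumour 1 had a Meg3 UMI, against 21.9% of those without Dlk1. In tumour 2 it was 11 of 20 (55.0%) against 35.7%, and in tumour 3 it was 3 of 4 against 16%. The exact binomial 95% intervals of the shares with and without Dlk1 were apart in tumour 1 (39.9% to 70.9% against 18.5% to 25.5%) and overlapped in tumours 2 and 3.

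Ndn, on another chromosome, served as a comparison gene. It was found in 11.6%, 25% and 0% of Dlk1-positive mesenchymal-like cells and in 14.5%, 11.2% and 9.88% of the others, with no common direction. Meg3 was also found in 48.5% of H19-positive against 21.3% of H19-negative mesenchymal-like cells of tumour 1, and in 60% against 34.7% in tumour 2. In tumour 3 it was found in 0 of 2 H19-positive cells.

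For H19 and Igf2 the counts were small. Igf2 was found in 7 of 66 H19-positive mesenchymal-like cells (10.6%) of tumour 1 against 2.99% of H19-negative cells, in 1 of 30 (3.33%) against 3.26% in tumour 2, and in 0 of 2 against 0% in tumour 3. Over all cells not assigned to a non-tumour class, it was 7.77% against 1.95% in tumour 1, 6.45% against 1.77% in tumour 2, and 0 of 21 against 0.261% in tumour 3, which is not detectable at this depth. These cells come from several states, so differences between states enter those shares.

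**Figure D3:**
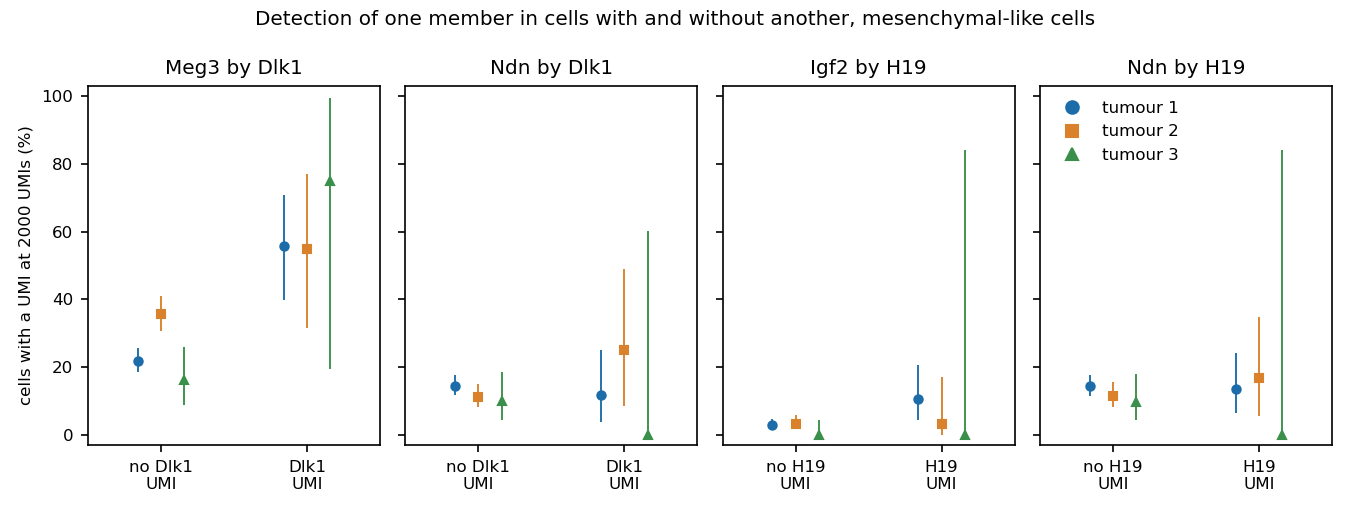
Share of mesenchymal-like cells (%, vertical axis) with a UMI of one member, in cells without and with a UMI of another, at 2000 UMIs per cell. Points are tumours and bars are exact binomial 95% intervals, which cover counting error only. Meg3 was found in 55.0% to 75% of Dlk1-positive cells and 16% to 35.7% of the others, and Ndn showed no common direction.

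Peg3 and Ndn rose with Meg3 in neuronal-like cells. Peg3 stood at 325, 412 and 112 CPM in neuronal-like cells and 85.1, 114 and 34.4 CPM in progenitor-like cells. It was 1.70 higher on the log2 scale (SE 0.286, adjusted p = 2.08e-04), in 3 of 3 tumours, and the lowest neuronal-like value lay just under the highest progenitor-like one. Ndn stood at 385, 348 and 201 CPM against 104, 104 and 74.1 CPM, with no overlap, and was 1.56 higher (SE 0.212, adjusted p = 2.41e-05). Markers of other cell types and depth moved with the neuronal-like class in every tumour. The oligodendrocyte list summed to 89.3, 352 and 43.4 CPM against 49.1, 214 and 27.4 CPM in progenitor-like cells, with 2 to 6 of its 10 genes at 0, and the immune list to 94.9, 164 and 97.6 against 48.0, 121 and 37.9 CPM, with 0 to 1 of 10 at 0. The median depth was 6855, 4001 and 14247 UMIs against 9787, 7726.5 and 20653.5. Their part in the differences of Meg3, Peg3, Ndn and Grb10 was not tested.

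Both genes were called in all 13 alternatives tried. After thinning, 41.3%, 35.0% and 33.3% of neuronal-like cells had an Ndn UMI, against 15.9%, 15.9% and 14.6% of progenitor-like cells and 3.30%, 4.32% and 1.29% of immune-like cells. The mesenchymal-like and Sox9+ levels of Ndn (82.5 to 109 and 82.7 to 106 CPM) overlapped the progenitor-like ones, and so did those of Peg3 (38.7 to 118 and 63.3 to 104.8 CPM).

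Grb10 went the other way. It was nearly constant in progenitor-like cells, at 247, 238 and 246 CPM, and lower in neuronal-like cells, at 144, 121 and 77.7 CPM. The difference was -1.24 (SE 0.275, adjusted p = 0.00236), lower in 3 of 3 tumours with no overlap. Without tumour 2 it was -1.32 and not called (adjusted p = 0.0591). Mesenchymal-like cells had 168, 164 and 85.1 CPM and differed from progenitor-like cells by -0.80 on the log2 scale (SE 0.261, adjusted p = 0.0471). The difference was -0.94 without tumour 1 (adjusted p = 0.202), -0.99 without tumour 2 (0.163) and -0.54 without tumour 3 (0.0665), and the call was kept in 5 of 13 alternatives. Sox9+ cells had 168, 161 and 245 CPM.

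Mest was not called between states. It stood at 168, 95.1 and 210 CPM in mesenchymal-like, 193, 140 and 94.7 CPM in Sox9+, 133, 113 and 61.5 CPM in progenitor-like and 99.1, 102 and 112 CPM in neuronal-like cells. The ranges overlapped, and the mesenchymal-like minus progenitor-like difference was 0.70 (95% interval 0.14 to 1.26, adjusted p = 0.122). Without tumour 3 it was 0.0892 (adjusted p = 0.853), and with 1 more marker per class it was called (0.88, adjusted p = 0.0159). Under that setting the Sox9+ minus progenitor-like difference was also called (0.91, adjusted p = 0.0265, against 0.53 and 0.371). Neuronal-like and progenitor-like cells differed by -0.10, a sign that turned with RLE size factors (0.03) and with DESeq2 (0.05).

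Among the states, Plagl1 was highest in Sox9+ cells in every tumour, and in each state it was highest in tumour 3. In tumour 3 it stood at 745 CPM in Sox9+, 525 CPM in progenitor-like and 316 CPM in neuronal-like cells. The values in tumours 1 and 2 were 40.4 and 57.6 CPM in Sox9+, 24.0 and 47.4 CPM in progenitor-like and 20.9 and 18 CPM in neuronal-like cells. In tumour 3 it was thus above both other tumours in every state, least so in mesenchymal-like cells, where the 3 tumours had 31.8, 45.1 and 67.0 CPM.

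The Plagl1 transcripts of tumour 3 were spread over many cells. At 2000 UMIs, 55.4% of Sox9+ and 53.5% of progenitor-like cells of tumour 3 had a Plagl1 UMI, against 4.09% and 7.38% of Sox9+ cells in tumours 1 and 2. The 5% of cells with most Plagl1 UMIs held 24.3% of them in progenitor-like cells of tumour 3, against 88.7% and 73.4% in tumours 1 and 2. Immune-like cells of tumour 3 also had 82.0 CPM, against 1.64 and 7.88 CPM in the others.

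None of the comparisons between states called Plagl1 as reported. At 1000 UMIs it was called lower in neuronal-like than in progenitor-like cells (-1.56, adjusted p = 0.00824, against -0.87 and 0.241). The difference between mesenchymal-like and Sox9+ cells was -1.09 (95% interval -2.02 to -0.16, adjusted p = 0.319), lower in 3 of 3 tumours. Tumour 3 was not tested against the others, since that contrast would have 1 animal on one side. In the same tumour H19, Igf2, Dlk1 and Meg3 were lowest of the 3 in Sox9+, progenitor-like and neuronal-like cells.

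The members' calls between states are set here beside the share of all genes called. In mesenchymal-like against progenitor-like cells 3 of 9 members were called (H19 and Dlk1 higher, Grb10 lower), where 12.3% of all genes tested were called, 9.23% higher and 3.04% lower. The median of the members was 0.70 and that of all genes -0.02. In mesenchymal-like against Sox9+ cells 2 of 9 were called, both higher, where 3.29% of all genes were called, 2.6% of all higher and 0.696% lower, and the medians were 0.17 and -0.02.

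Between Sox9+ and progenitor-like cells edgeR called 0 of 9 members, where 3.5% of all genes were called, 2.86% higher and 0.641% lower. At an unadjusted p under 0.05 the count was also 0, as it was by DESeq2. The median of the members was 0.31 and that of all genes 0.00. The widest 95% interval was that of Dlk1 (-1.37 to 2.10), so the test does not show that these states had equal levels.

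Neuronal-like against progenitor-like cells gave 4 of 9 members, where 20.4% of all genes were called, with 3 higher where 10.4% of all genes were called higher, and 1 lower where 10% were called lower. The medians were -0.10 and -0.06. Of all genes called in this comparison 50.8% were higher, 66.6% with RLE size factors and 64.7% with DESeq2, whose scaling moved the median of all genes to 0.07 and 0.10. The members' calls were the same 4 under both scalings. Over the 13 alternatives the count ran from 3 to 6, and H19 was called lower in 4 of them, at most with doublets kept (-2.80, adjusted p = 0.00136, against -1.20 and 0.185). The comparisons share sums, the progenitor-like sums entering 3 of them, so their results are not independent.

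**Figure D4:**
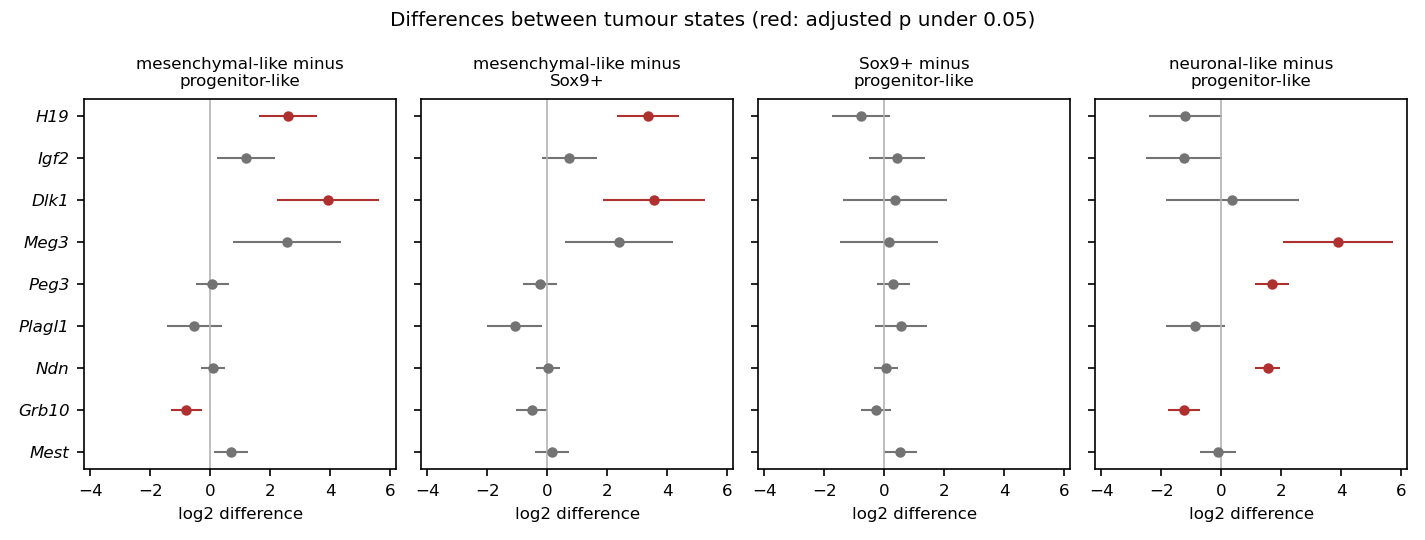
Log2 difference of each member between tumour states (horizontal axis), with 95% intervals from the edgeR fit over 3 tumours; red marks an adjusted p under 0.05. H19 and Dlk1 lay above 0 in both mesenchymal-like comparisons, Meg3, Peg3 and Ndn in neuronal-like cells, and every interval of the Sox9+ minus progenitor-like differences crossed 0.

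Compared with immune-like and endothelial-like cells of the same tumours, most members were higher in the average of the tumour states. Glial classes, with too few cells in tumour 3, were not tested. The average of the 4 states exceeded immune-like cells for 7 of 9 members, where 58.7% of all genes were called, 28.7% higher, and no member was called lower, where 30% of genes were. The median of the members was 1.98 against 0.08 over all genes. Mest had 127 ± 18.9 CPM in the states against 15.9 ± 2.41 CPM (2.33 on the log2 scale, SE 0.286, adjusted p = 2.67e-07).

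Ndn had 149 ± 28.2 against 17.6 ± 7.27 CPM (2.23, SE 0.204, adjusted p = 2.33e-09). Grb10 had 172 ± 9.13 against 29.9 ± 5.19 CPM (1.89, adjusted p = 6.92e-07), and Peg3 131 ± 63.4 against 15.3 ± 9.33 CPM (2.28, adjusted p = 3.44e-07). H19 was 1.98 higher (adjusted p = 0.00311) and lost its call without tumour 1 (adjusted p = 0.152) and without the replicate block (0.0682), and Plagl1 lost its call without the block (0.249). Igf2 was 1.31 higher (adjusted p = 0.0308) and lost it without tumour 1 (0.276) or tumour 2 (0.0537), with 1 more marker (0.0534), without the highest cell of each sum (0.0866) and without the replicate block (0.313). Dlk1 (0.76, adjusted p = 0.441) and Meg3 (1.49, adjusted p = 0.0919) were not called, although Meg3 passed in 8 of 13 alternatives and every member was higher in 3 of 3 tumours.

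Against endothelial-like cells 8 of 9 members were called higher, where 55% of all genes were called, 28.4% higher and 26.7% lower, with a median of 2.88 against 0.17. Ndn stood at 12.5 ± 4.88 CPM there and was 3.25 higher in the states (SE 0.268, adjusted p = 5.07e-10). Igf2 had 0 UMIs among 2959407 in endothelial-like cells, and with 3 counts over the group as the limit this allows up to 1.01 CPM. Its level in the states was 8.39 CPM on average. In tumour 3 the mesenchymal-like, Sox9+, progenitor-like and neuronal-like cells had only 2.58, 0.139, 0.968 and 0 CPM, so no fold is given. Grb10 differed least, with 82.3 ± 27.4 CPM in endothelial-like cells (0.86, adjusted p = 0.00444), and Dlk1, with 4 UMIs in endothelial-like cells, was not called (adjusted p = 0.130). The call of Meg3 (1.98, adjusted p = 0.0469) was lost without tumour 1 (0.287) or tumour 2 (1.18, adjusted p = 0.250), with doublets kept (1.16, adjusted p = 0.124), with RLE size factors (0.0583) and without the replicate block (0.0611), and that of Igf2 without tumour 1 (0.0709). Plagl1 lost its call without the replicate block (0.128), where 6 members were called.

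Mesenchymal-like and mural-like cells share many of the genes used to find them, the mesenchymal list summing to 1058 to 1469 CPM in mural-like cells and 1321 to 2514 CPM in mesenchymal-like cells. H19, Peg3, Ndn and Mest were called higher in mesenchymal-like cells, 4 of 9 members, where 28.9% of all genes were called, 14.3% higher and 14.6% lower. The medians were 1.11 and 0.21, and the median of all genes was 0.06 with RLE size factors and 0 with DESeq2. Of all genes called here 49.5% were higher, 38.9% with RLE size factors and 37.8% with DESeq2.

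Mest had 158 ± 58.2 CPM in mesenchymal-like and 33.1 ± 25.8 CPM in mural-like cells (2.51, SE 0.418, adjusted p = 7.47e-05). Ndn had 97.8 ± 13.7 and 29.1 ± 4.83 CPM (1.67, SE 0.302, adjusted p = 1.86e-04). H19 was at 169 ± 74.2 CPM against 2 UMIs in 1277279, with an adjusted p of 8.01e-05. Peg3 was 1.11 higher (adjusted p = 0.0439), a call kept in 6 of 13 alternatives. It was lost without tumour 1 (0.106) or tumour 2 (0.270), with RLE size factors (0.0953), DESeq2 (0.0762), doublets kept (0.0806) or at least 50 cells per sum (0.142), and without the replicate block (0.169). For Plagl1 the fitted difference was 1.01 (adjusted p = 0.296) although its mean was 48.0 CPM in mesenchymal-like and 56.1 CPM in mural-like cells.

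The insulin-like growth factor axis, 20 genes of which 19 were tested, was examined because Igf2 and Grb10 act in it. In mesenchymal-like against progenitor-like cells 5 were higher and 1 lower, where 9.23% of all genes were called higher and 3.04% lower, with a median of 0.57 (all genes -0.02). The binding proteins Igfbp7 (4.86, adjusted p = 2.92e-06), Igfbp4 (3.38, adjusted p = 1.58e-04) and Igfbp2 (2.99, adjusted p = 3.60e-04) were higher in 3 of 3 tumours. So was the protease Pappa2 (2.74, adjusted p = 0.0287). Igfbp7 was higher still in mural-like cells (4698 ± 197 CPM against 163 ± 51.0 in mesenchymal-like cells), and the part of the mural and fibroblast genes that move with the mesenchymal-like class was not tested.

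Igfbp4 stood at 505 ± 176 CPM in mesenchymal-like and 53.6 ± 36.0 CPM in progenitor-like cells. Against Sox9+ cells 6 genes of this axis were higher and 0 lower, where 2.6% and 0.696% of all genes were, with a median of 0.31 (all genes -0.02). In neuronal-like against progenitor-like cells 2 were lower and 0 higher, where 10% and 10.4% of all genes were: the receptor substrate Irs2 (-1.17, adjusted p = 0.0199) and Igf2r, the receptor that clears Igf2 and is itself imprinted (-0.88, adjusted p = 0.0372). Between the tumour states and immune-like cells 10 of the 19 were higher and 1 lower, where 28.7% and 30% of all genes were, with a median of 1.19 (all genes 0.08). The higher ones included Igfbp5 (406.5 ± 154 against 66.7 ± 50.4 CPM, adjusted p = 0.00187), the receptor substrate Irs1 (28.5 ± 6.53 against 4.48 ± 3.99 CPM, adjusted p = 4.08e-05) and the RNA-binding protein Igf2bp1 (9.09 ± 7.57 against 1.5 ± 0.96 CPM, adjusted p = 0.00339). The lower one was the ligand Igf1 (-5.00, adjusted p = 9.68e-11), at 13.9 ± 3.6 against 212 ± 65.7 CPM. Against endothelial-like cells 6 were higher and 7 lower, where 28.4% and 26.7% of all genes were, with Igfbp7 (-8.02, adjusted p = 4.87e-15) and Igfbp3 (-6.78, adjusted p = 8.74e-16) among the lower. In mesenchymal-like against mural-like cells 5 were higher and 4 lower, where 14.3% and 14.6% of all genes were.

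Among 50 other imprinted genes 47 matched and 38 were tested. In neuronal-like against progenitor-like cells 11 were higher and 2 lower, where 10.4% and 10% of all genes were, with a median of 0.52 (all genes -0.06). Nap1l5 (3.61, adjusted p = 4.06e-08), Usp29 (3.48, adjusted p = 1.16e-05), which lies next to Peg3, Mirg (3.38, adjusted p = 0.00294), a noncoding RNA of the Dlk1 and Meg3 domain, and Nnat (1.88, adjusted p = 1.81e-04) were higher in 3 of 3 tumours. Nnat, or neuronatin, rose from 171 ± 64.5 to 697 ± 69.0 CPM.

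In mesenchymal-like against progenitor-like cells 6 of the 38 were higher and 0 lower, where 9.23% and 3.04% of all genes were, with a median of 0.10 (all genes -0.02). They included the amino acid transporter Slc38a4 (4.55, adjusted p = 8.63e-04), the noncoding Airn (2.66, adjusted p = 3.68e-04), Nnat (0.99, adjusted p = 0.0333) and the tetraspanin Cd81 (0.82, adjusted p = 0.0106). The Slc38a4 values were low, 6.44 ± 2.25 against 0.235 ± 0.0653 CPM. In Sox9+ against progenitor-like cells 0 of 38 were called by edgeR, where 3.5% of all genes were. Between the tumour states and immune-like cells 19 of the 38 were higher and 5 lower, where 28.7% and 30% of all genes were, with a median of 1.27 (all genes 0.08). Among them Cdkn1c, an inhibitor of the cell cycle that restrains fetal growth, was 2.85 higher (adjusted p = 0.00164), at 580.5 ± 655 CPM, a spread wider than its mean.

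Of 14 genes that set or guard imprints, 11 were tested. In mesenchymal-like against progenitor-like cells 0 were higher and 2 lower, where 9.23% and 3.04% of all genes were. Zfp57 and Zfp445, zinc finger proteins that hold methylation at imprinted regions, were lower in mesenchymal-like than in progenitor-like cells (-0.68, adjusted p = 0.0342, and -0.49, adjusted p = 0.0189), at 29.0 ± 3.54 against 47.7 ± 4.88 CPM for Zfp57. Uhrf1, which directs maintenance methylation in dividing cells, was the 1 of 11 called lower in neuronal-like than in progenitor-like cells (-2.24, adjusted p = 0.0162), where 10% of all genes were. Between the tumour states and immune-like cells 3 of the 11 were higher and 2 lower, where 28.7% and 30% of all genes were, with a median of 0.11 (all genes 0.08). Tet1, which oxidises methylated cytosine, and Zfp57 were higher (2.01, adjusted p = 3.82e-08, and 1.98, adjusted p = 3.94e-08). Tet3, of the same family as Tet1, was called lower (-0.35, adjusted p = 0.0250) although its mean level was 89.3 CPM in the states and 72.8 CPM in immune-like cells. In mesenchymal-like against Sox9+ cells 0 of 11 were called by edgeR, where 3.29% of all genes were.

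The genes most like 4 of the members were read from the Pearson correlation of log2(CPM + 1) over the 28 sums of class and tumour, as a description, since the sums share animals and libraries. Among the genes with at least 10 CPM on average, H19 was the second closest to Igf2 (r = 0.76), after Foxa1 (r = 0.80). The 5 closest to H19 were Smim8 (r = 0.84), Sox21, 1810041L15Rik, Phpt1 and Shisa9. Dlk1 was closest to Prrx1 (r = 0.76), Rftn2, Rbfox1, Twist1 and Fam110b, of which Prrx1 and Twist1 are markers that chose the mesenchymal-like cells. Meg3 was closest to Rbfox1 (r = 0.87), Bcl9l, Nrxn2, Cacna1c and Cdh4. Dlk1 and Meg3 had r = 0.60 with each other, and Plagl1 had negative r with each of these 4 members, from -0.28 to -0.17.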

How the data were processed

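Single cells of 3 tumours were profiled with 10x 3′ libraries, and the authors deposited UMI counts per gene and barcode, without normalization. The submitters' processing notes name Cell Ranger 3.1.0 and mm10. The labels name a kit targeting 1000 cells per sample, whereas the matrices held 12467, 9485 and 6428 barcodes.

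Barcodes were kept above the 5th percentile of detected genes (384, 407 and 367 genes) and below a mitochondrial share of 16.6%, 20% and 15.4%. Scrublet's own threshold marked 1 cell in each tumour, so the top-scoring cells at 0.8% per 1000 cells were removed instead (692, 449 and 152). This left 8851, 7111 and 4854 cells. Cells were thinned to 2000 UMIs and gated on detected markers, at numbers set after the marker counts had been seen. The gates are rebuilt classes, not the authors' annotation, so they can differ from the study's clusters.

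Counts were summed over at least 20 cells per class and tumour (28 sums), filtered with filterByExpr (14359 genes), scaled by TMM and tested with edgeR's quasi-likelihood test with the tumour as a block, since the sums of 1 tumour come from the same animal. P-values were adjusted by Benjamini-Hochberg over all genes tested. The spread of each gene was estimated over all 28 sums, including classes that were not compared. The p-values therefore do not measure the spread of the compared difference over 3 tumours alone. CPM levels use the sums without TMM. The fit was also run on counts simulated per sum with no tumour effect. These do not reproduce genes carried by few cells, and no conclusion is drawn from them here. Python 3.11.15, scanpy 1.11.5, R 4.3.3, edgeR 4.0.16 and DESeq2 1.42.0 were used.

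Every member was named, and from each other list up to 4 called genes with the largest log2 difference per comparison and 1 direction in every tumour. Likeness was the Pearson correlation of log2(CPM + 1) with genes of at least 10 CPM. Poisson and exact binomial 95% intervals cover counting error only, and 3 counts were the limit that a count of 0 allows. Alternatives were RLE size factors, DESeq2, no filter, no replicate block, each tumour left out, 1 more marker, gates at 1000 UMIs, no cycling cells, doublets kept and at least 50 cells per sum. Sums without the highest cell were chosen after seeing the data. The members and lists were chosen with earlier results of these data known.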

Additional observations from a re-analysis of the deposited data

Results flagged for a closer look

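Some kinds of cell outside the comparisons, gated on glial markers in tumours 1 and 2, held some members above the upper counting limit of the immune-like, endothelial-like and mural-like cells of the same tumour. They were oligodendrocyte precursor-like cells (65 and 36 cells), oligodendrocyte-like cells (42 and 132 cells) and astrocyte-like cells (56 and 70 cells). Smarcb1 had 52 and 14 UMIs in the precursor-like, 18 and 23 in the oligodendrocyte-like and 0 and 7 in the astrocyte-like cells, so the astrocyte-like cells of tumour 1 had no Smarcb1 UMI. Each value is from 1 library with no replicate.

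H19 stood at 284 CPM in the precursor-like cells of tumour 1 and 69.4 CPM in those of tumour 2, against limits of 19.2 and 25.5 CPM in the compared classes. After thinning, 32.3% and 11.1% of these cells had an H19 UMI. The mesenchymal-like cells of tumour 1 were lower, at 244 CPM and 11.0% of thinned cells, whereas those of tumour 2 had a higher CPM than its precursor-like cells. H19 was at 144 and 94.2 CPM in oligodendrocyte-like cells, where all 68 UMIs of tumour 1 came from 1 cell and 58 of the 79 of tumour 2 from 2 cells. It was at 99.6 CPM in the astrocyte-like cells of tumour 1, where 1 cell, at a depth of 27795 UMIs, held 39 of the 45 UMIs. No precursor-like cell held 10 or more.

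Peg3 stood at 326 and 260.1 CPM in the precursor-like cells of tumours 1 and 2, against limits of 64.0 and 90.3 CPM. It was at 89.1 CPM in the oligodendrocyte-like cells of tumour 1 and at 199 CPM in the astrocyte-like cells of tumour 2. Ndn stood at 188 and 121 CPM in the precursor-like cells, against limits of 59.0 and 70.8 CPM, and at 99.6 CPM in the astrocyte-like cells of tumour 1. The average of the 4 tumour states over the 3 tumours was 131 CPM for Peg3 and 149 CPM for Ndn. In those astrocyte-like cells Grb10 was at 144 CPM (limit 110.5) and Mest at 201 CPM (limit 50.7).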

How the results depend on the processing

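Of 819 differences of members recomputed under the alternatives, 708 kept their direction and side of the threshold, 34 came to pass it, 45 no longer passed it and 32 changed sign, none of them called as reported. The cause of the changes was not tested. In mesenchymal-like against progenitor-like cells the 3 calls became 5 with 1 more marker and 0 to 3 when each tumour was left out, while the calls over all genes went from 1761 to 2359 and, without tumours 1, 2 and 3, to 300, 741 and 2088. At 1000 UMIs H19 was not among them. The 2 calls over Sox9+ cells became 1 with DESeq2 and 1 with doublets kept, and 0 to 2 when each tumour was left out, while the calls over all genes, 473 as reported, were 448 with DESeq2, 476 with doublets kept, and 4, 84 and 664 without tumours 1, 2 and 3. Between Sox9+ and progenitor-like cells 1 member, Mest, was called with 1 more marker.

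Leaving out each tumour changed the sign of differences that were not called. Mesenchymal-like minus progenitor-like, these were Peg3 (-0.0132 to 0.16), Plagl1 (-1.08 to 0.18) and Ndn (-0.17 to 0.26). Sox9+ minus progenitor-like, they were Igf2 (-0.12 to 0.82), Peg3 (-0.0789 to 0.48) and Ndn (-0.11 to 0.22). Mesenchymal-like minus Sox9+, they were Peg3 (-0.47 to 0.0657), Ndn (-0.0651 to 0.15) and Mest (-0.37 to 0.45). The others were Dlk1 (-0.30 to 1.01) and Mest (-0.46 to 0.21) in neuronal-like minus progenitor-like, and Grb10 (-0.21 to 0.58) and Dlk1 (-1.76 to 1.58) in mesenchymal-like minus mural-like cells.

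Other settings changed the sign of Ndn in mesenchymal-like minus progenitor-like (-0.15 with 1 more marker, -0.0546 at 1000 UMIs, -0.0426 without the highest cell) and of Peg3 there (-0.0857 with doublets kept, -0.0388 without the highest cell). In Sox9+ minus progenitor-like they changed H19 (0.11 with 1 more marker) and Ndn (-0.0457 at 1000 UMIs, -0.0818 with doublets kept). In mesenchymal-like minus Sox9+ they changed Ndn (-0.17 with 1 more marker, -0.00883 at 1000 UMIs, -0.101 without the highest cell), Mest (-0.0282 and -0.0570 with 1 more marker and at 1000 UMIs) and Peg3 (0.15 at 1000 UMIs). Mest in neuronal-like minus progenitor-like became 0.0302 with RLE, 0.0461 with DESeq2, 0.50 with 1 more marker and 0.26 at 1000 UMIs.

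Without the replicate block, which ignores that sums come from the same tumour, 1 member was called in mesenchymal-like against progenitor-like cells, 0 against Sox9+ cells, 4 over immune-like and 6 over endothelial-like cells, while the calls over all genes fell from 1761 to 838, from 473 to 158, from 8426 to 7025 and from 7899 to 6904. H19 was then 2.33 higher in mesenchymal-like than in progenitor-like cells (adjusted p = 0.185) and Dlk1 3.68 (adjusted p = 0.0441), both by edgeR. Plagl1 in mesenchymal-like minus mural-like cells turned to -0.49 without the block.

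With 3 tumours, a difference carried by few cells is poorly determined, and sums such as the 30 mural-like cells of tumour 2 or the 42 neuronal-like cells of tumour 3 rest on few cells.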
